A study of Mus musculus with 6 samples.

Results

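The 32 genes described here, called vessel genes, are of the blood vessels of the retina or encode ligands that act on them. Endothelial cells line the vessel, and mural cells wrap it as pericytes on capillaries and as smooth muscle on arterioles. The genes were taken by gene symbol from a table of 55450 genes, in which each had 1 row. By role, 19 are classed as endothelial, 11 as mural and 2 as ligands that act between the cells. The 6 retinal RNA samples are from C57BL/6 mice at 8 weeks of age, 3 labelled Myrf-kd and 3 labelled WT. The series' design text gives the Myrf-kd mice as Myrf +/−, carrying 1 altered copy of Myrf, a gene for a membrane-bound transcription factor known from oligodendrocytes. The labels give no Cre line or transgene, no part of the gene that was altered and no pooling. Nothing in them says that the samples of a group are separate animals, so p-values measure the spread between these samples, which may be partly technical.

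Retinal capillaries form a barrier between blood and neurons. Endothelial cells close it with the tight junction protein claudin 5 and the adherens junction protein VE-cadherin, and pericytes in the same basement membrane keep it closed. Endothelial cells attract pericytes with the growth factor PDGF-B, which is bound by PDGF receptor beta. Glia and neurons release VEGF-A, which is bound by the endothelial receptors encoded by Kdr and Flt1.

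Library totals lay between 50695091 and 70298511 count units, with about 4 units per sequenced fragment. Levels of 1 gene in different libraries are given in CPM (units scaled to a common library total with TMM factors), and levels of different genes are compared in FPKM, which is scaled by length. Myrf itself had 0.279, 0.382 and 0.351 FPKM in Myrf-kd 1, 2 and 3, against 0.359, 0.397 and 0.463 FPKM in WT 1, 2 and 3, so the groups overlapped and the values do not check the labels. Myrf-kd 3 stood apart on the first principal component. Xist and Y-linked genes gave 2 female libraries, the third replicate of each group, and 4 male ones. Each group therefore came from more than 1 animal. Whether the male libraries of a group are separate animals is not known. Rod markers summed to at least 32925 CPM in every library, against at most 90.9 CPM for blood. Pigment epithelium and choroid markers summed to at most 517 CPM. The RNA was thus mostly that of retina, with markers of neighbouring tissue in it. Whether part of the vessel gene RNA came from choroid or sclera was not tested. In RNA of whole tissue, fewer vessel cells and less RNA per vessel cell cannot be told apart. Nor can RNA of the genes described be told from that of other cells, such as Vegfa RNA of glia and neurons.

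The mean over the 6 libraries was 20.4 ± 1.01 FPKM for Vegfa, the highest of the 32 genes, followed by Kdr at 11.8 ± 1.45, Rgs5 at 10.8 ± 0.81, Flt1 at 7.89 ± 0.46 and Esam at 5.10 ± 0.46 FPKM (SD, n = 6). Kdr and Rgs5 differed by less than the spread of Kdr. Acta2, Pdgfrb, Tagln, Pecam1 and Cldn5 lay between 2.22 and 2.84 FPKM, with SDs of 0.23 to 0.63, and their order is within that spread. Of the 32 genes, 15 had a mean of at least 1 FPKM and entered the test, 10 endothelial, 4 mural and 1 ligand. Cdh5, at 1.19 FPKM, was the lowest of these, and Kcnj8, at 0.993, and Abcc9, at 0.977 FPKM, lay just below. The 17 genes below the filter ranged down to 0.0795 FPKM for Anpep and rested on 3 to 193 fragments per library, against 41 to 2575 for those tested.

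**Figure D1:**
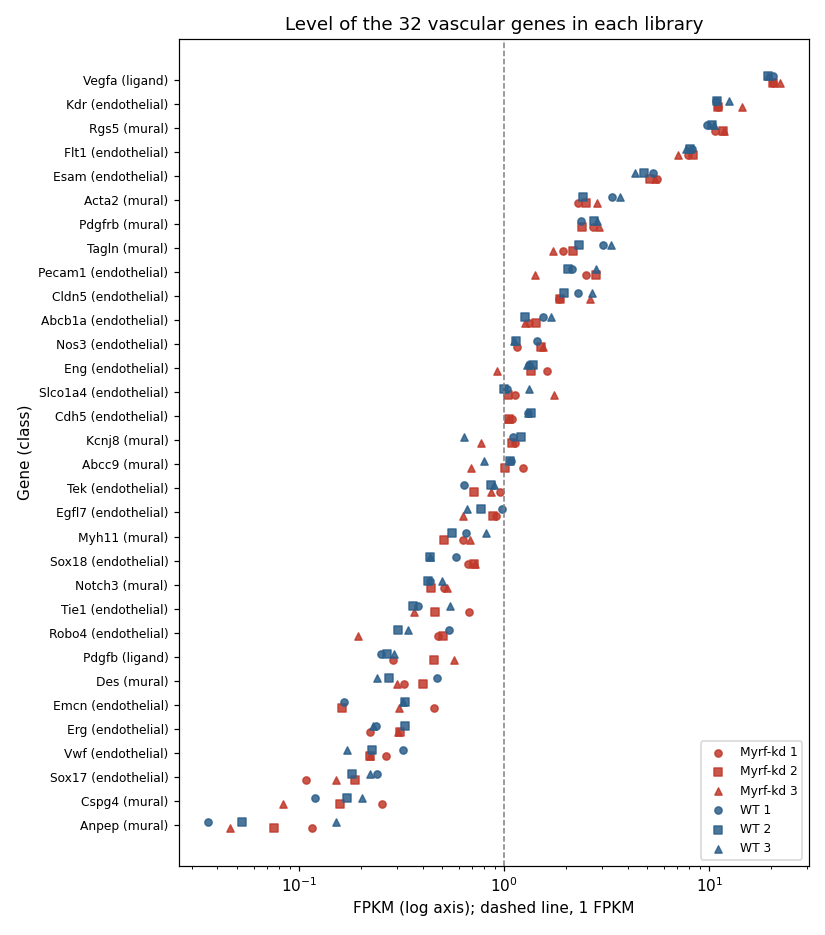
Level of the 32 genes in each library in FPKM on a log axis, in order of the mean; red points are Myrf-kd and blue points WT, with circle, square and triangle for replicates 1, 2 and 3, and the dashed line is 1 FPKM. Vegfa is highest at 20.4 FPKM and Anpep lowest at 0.0795 FPKM, and for most genes the colours are mixed.

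Whether vessel genes differ between Myrf +/− and wild-type retina was tested with edgeR's quasi-likelihood test, with adjustment over all 13673 genes of the table with at least 1 FPKM. None of the 15 tested vessel genes passed (edgeR adjusted p between 0.666 and 0.992), where 0.0439% of all genes passed. Tagln and Cdh5 had an edgeR p under 0.05 before adjustment, 2 of the 15 genes and both with lower estimates in Myrf-kd. Of all genes 7.49% had such a p, 3.73% with a lower estimate. DESeq2 also passed 0 of the 15, where it passed 0.388% of all genes, with Tagln and Cdh5 at an unadjusted p under 0.05, as had 7.89% of all genes. The third tool, limma on log2(FPKM + 1) passed 0, where it passed 0.0293% of all genes, and had 1 gene, Tagln, at an unadjusted p under 0.05, as had 7.44% of all genes. In CPM the groups of 3 libraries did not overlap in 2 of the 15 genes, again Tagln and Cdh5 and both lower in Myrf-kd. This was so for 14.6% of all genes tested, and for 7.5% with Myrf-kd lower. In FPKM, Vegfa and Rgs5 also did not overlap, both higher in Myrf-kd, and no share of all genes was computed in FPKM.

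Estimates were higher in Myrf-kd for 6 of the 15 genes and lower for 9, where 49% of all genes tested had a lower estimate. The median log2 fold change was −0.06 over the 10 endothelial genes tested and −0.16 over the 4 mural genes, against 0.0041 over all genes tested. Without WT 3 the endothelial median was 0.02. Over all 11 mural genes, fitted without the filter, the mural median was −0.020. The unadjusted 95% interval of the fold change lay within 1.5-fold either way in 8 of the 15 genes and within 2-fold in 14. Tagln was the gene whose interval reached beyond 2-fold.

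**Figure D2:**
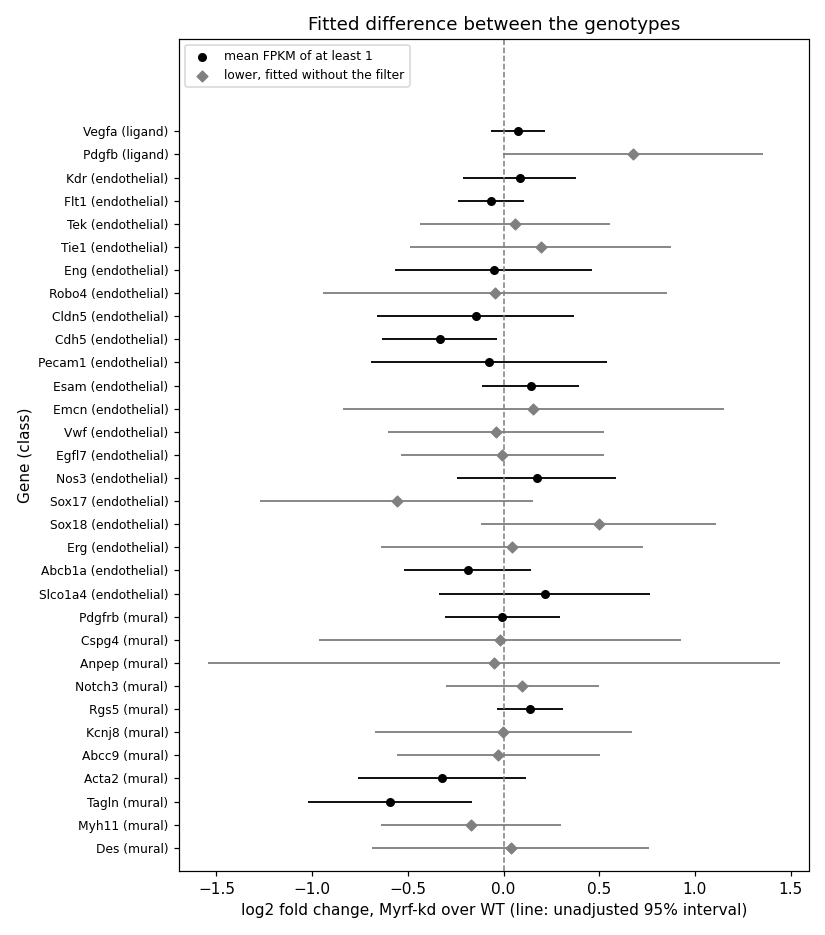
Fitted log2 fold change of Myrf-kd over WT for each gene, in order of role, with its unadjusted 95% interval; black circles are the 15 genes of at least 1 FPKM and grey diamonds the 17 lower genes, fitted without the filter. The intervals of Cdh5 and Tagln lie below 0, and the adjusted p of both is 0.666 by edgeR.

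Vegfa (chromosome 17, 46016993 to 46032369, GRCm38), the gene of the ligand VEGF-A, had 102, 101 and 109.8 CPM in Myrf-kd 1, 2 and 3, compared in WT 1, 2 and 3 with 101, 98.1 and 97.7 CPM. Myrf-kd 3 was highest, and the groups overlapped through WT 1. In FPKM they just missed each other, at 20.47 or more in Myrf-kd and at most 20.42 in WT. The fold change was 1.05, with a 95% interval from 0.956 to 1.16 (edgeR adjusted p = 0.751). Over the 15 genes tested this was the narrowest interval. Pdgfb, the gene of the pericyte-attracting ligand PDGF-B, lay below the filter at 1.43, 2.20 and 2.75 CPM in Myrf-kd against 1.21, 1.33 and 1.45 CPM in WT. Its values rest on 16.5 to 46.75 fragments, and Myrf-kd 2 and 3 were above every WT library. Fitted without the filter its fold change was 1.597, the highest of the 32 genes (edgeR adjusted p = 0.718).

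The VEGF-A receptor gene Kdr (chromosome 5, 75932827 to 75978458), known also from retinal neurons, was at 117, 115 and 152 CPM in Myrf-kd, compared with 113, 117 and 132 CPM in WT. The libraries numbered 3 of both groups were highest. The means were 128 ± 20.9 CPM in Myrf-kd against 120.4 ± 9.92 CPM in WT (SD, n = 3 each), a difference smaller than the SD within Myrf-kd (edgeR adjusted p = 0.866). Flt1 (chromosome 5, 147561604 to 147726011), which encodes the other VEGF-A receptor and a soluble form that binds the ligand, went the other way in the same libraries. It was at 124, 129 and 111 CPM in Myrf-kd, compared with 129, 129.8 and 122 CPM in WT, with the lowest value in Myrf-kd 3. Its fold change was 0.955, with a 95% interval from 0.847 to 1.08.

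The 250 bases before the RefSeq start of Flt1 (chr5:147726012-147726261, minus strand, GRCm38.p6) are shown because it is the tested receptor gene with most matches to GGAAG, a core letter string of ETS factors, the family of the endothelial factor ERG. Capitals mark the 3 matches, searched on both strands.
Flt1: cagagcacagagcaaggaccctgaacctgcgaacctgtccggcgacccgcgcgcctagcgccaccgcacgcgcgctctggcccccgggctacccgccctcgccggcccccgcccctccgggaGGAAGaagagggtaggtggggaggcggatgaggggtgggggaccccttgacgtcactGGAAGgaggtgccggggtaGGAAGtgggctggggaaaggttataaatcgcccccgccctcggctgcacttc
A RefSeq window was at hand for 21 of the 32 genes, and 13 of these had a match. GGAAG or its reverse complement is in 64.1% of all 32851 windows of that length, so the match is common.

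Tek and Tie1, the angiopoietin receptor gene and its partner, lay below the filter. Tek was at 3.86 to 5.30 CPM in Myrf-kd against 3.46 to 4.97 CPM in WT, and Tie1 at 2.08 to 3.88 and 2.12 to 3.14 CPM. Eng, which encodes the BMP co-receptor endoglin, was at 7.65, 6.31 and 4.38 CPM in Myrf-kd, compared with 6.17, 6.66 and 6.17 CPM in WT. The WT libraries were close together, while Myrf-kd held both the highest and the lowest value (edgeR adjusted p = 0.963). Robo4, a guidance receptor gene of vessels, was at 2.98, 3.08 and 1.19 CPM in Myrf-kd against 3.33, 1.96 and 2.13 CPM in WT.

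Of the junction genes, Cdh5 (chromosome 8, 104101625 to 104144511), which encodes VE-cadherin, had the most separate groups. It had 5.33, 5.09 and 5.07 CPM in Myrf-kd 1, 2 and 3, compared in WT 1, 2 and 3 with 6.33, 6.74 and 6.45 CPM. All Myrf-kd libraries lay below all WT libraries, with means of 5.16 ± 0.145 and 6.505 ± 0.211 CPM. Its values rest on 79.75 to 110.25 fragments per library, so SDs this small over 3 libraries may understate the noise. The log2 fold change was −0.33 ± 0.13 (SE), or 79.4% of WT with a 95% interval from 64.4% to 97.7%. It did not pass (edgeR unadjusted p = 0.0343, adjusted p = 0.666), and the two-sided exact permutation p was 0.1, the smallest that 3 against 3 allows. Its unadjusted p was above 0.05 in each omission of a library, at 0.0596 to 0.0903 by edgeR.

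The claudin 5 gene Cldn5 (chromosome 16, 18776847 to 18778262) was at 3.07, 3.03 and 4.32 CPM in Myrf-kd, compared with 3.74, 3.31 and 4.47 CPM in WT. Both groups were highest in their female library, and the groups overlapped (edgeR adjusted p = 0.866). Pecam1 (chromosome 11, 106654217 to 106750628), the CD31 adhesion gene, was at 18.2, 20.2 and 10.3 CPM in Myrf-kd against 15.5, 15.2 and 20.4 CPM in WT. Myrf-kd 3 was at 56.5% of the median of the other 5 libraries, and without it the log2 fold change was 0.17 in place of −0.08. Esam, an adhesion gene of endothelial tight junctions, was at 18.7, 16.9 and 18.0 CPM in Myrf-kd, compared with 17.6, 16.5 and 14.6 CPM in WT, with a fold change of 1.10 and a 95% interval from 0.926 to 1.31. Emcn, the gene of the sialomucin endomucin, lay below the filter, at 1.02 to 2.87 CPM in Myrf-kd against 1.04 to 2.12 CPM in WT. The junction genes thus held estimates on both sides of 0.

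Nos3, which encodes endothelial nitric oxide synthase, was at 5.59, 7.19 and 7.40 CPM in Myrf-kd, compared with 6.89, 5.61 and 5.41 CPM in WT (fold change 1.13, 95% interval 0.844 to 1.504, edgeR adjusted p = 0.804). Gm15587 on the opposite strand shares 25.2% of the exonic bases of Nos3, and reads of the 2 genes are not told apart where strand is not kept. Gm15587 was at 8.75 ± 0.634 CPM in Myrf-kd against 4.86 ± 2.13 CPM in WT (log2 fold change 0.85, edgeR adjusted p = 0.666). Its part in the Nos3 values was not tested. Vwf, the gene of the clotting factor stored in endothelial granules, and Egfl7, a secreted vessel protein gene, lay below the filter. Vwf was at 4.10 to 5.02 CPM in Myrf-kd against 3.27 to 6.00 CPM in WT, and Egfl7 at 2.67 to 3.88 and 2.85 to 4.10 CPM, so both overlapped.

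The endothelial transcription factor genes were all below the filter. Sox18 was at 1.26, 1.32 and 1.36 CPM in Myrf-kd, compared with 1.10, 0.847 and 0.833 CPM in WT. Sox17 was at 0.608, 1.05 and 0.854 CPM in Myrf-kd against 1.35, 1.07 and 1.27 CPM in WT. In CPM the groups did not overlap in either gene, Sox18 being higher and Sox17 lower in Myrf-kd. The 2 belong to the same SoxF family. In FPKM the groups overlapped in Sox17. Between 9.75 and 23 fragments lie behind each value, and without the filter neither passed (edgeR adjusted p = 0.718 for both). With no filter, groups did not overlap in CPM in 10.6% of 31233 genes, and in 4 of the 32 described here. Erg, the ETS factor gene, was at 0.904 to 1.26 CPM in Myrf-kd, compared with 0.962 to 1.37 CPM in WT.

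Transporters of the blood-retina barrier had estimates in opposite directions. Abcb1a, the drug efflux pump gene of the P-glycoprotein family, was at 8.51, 8.96 and 8.01 CPM in Myrf-kd against 9.80, 8.31 and 10.9 CPM in WT. It has a paralog of similar sequence, Abcb1b, and how reads were split between them was not tested. The organic anion transporter gene Slco1a4 was at 8.49, 7.72 and 13.1 CPM in Myrf-kd, compared with 7.69, 7.61 and 9.91 CPM in WT. Its highest values were in the female libraries, Myrf-kd 3 at 170% of the median of the other 5, and the log2 fold change was −0.05 without Myrf-kd 3 in place of 0.22.

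Of the pericyte genes only Pdgfrb and Rgs5 were tested. Neither passed, and both estimates were small. Pdgfrb, the PDGF-B receptor gene that defines mural cells, was at 17.2, 15.0 and 18.5 CPM in Myrf-kd against 15.0, 17.8 and 18.3 CPM in WT. The means were 16.9 ± 1.76 and 17.0 ± 1.78 CPM, and the fold change was 0.996 with a 95% interval from 0.809 to 1.23. Rgs5 (chromosome 1, 169655501 to 169695813), which encodes a G-protein regulator abundant in pericytes, was at 56.2, 61.0 and 62.2 CPM in Myrf-kd, compared with 51.2, 55.4 and 56.5 CPM in WT. WT 3 lay just above Myrf-kd 1 in CPM, whereas in FPKM the groups just missed each other, at 10.62 or more in Myrf-kd and at most 10.60 in WT. The fold change was 1.10, with a 95% interval from 0.976 to 1.24 (edgeR adjusted p = 0.697).

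The other pericyte genes lay below the filter and overlapped between the groups. The potassium channel genes Kcnj8 and Abcc9, whose products assemble into 1 channel, had their lowest values in the female libraries. Kcnj8 was at 3.38, 3.21 and 2.28 CPM in Myrf-kd against 3.27, 3.67 and 1.91 CPM in WT, and Abcc9 at 12.03, 9.66 and 6.69 and at 10.4, 10.6 and 7.84 CPM. The genes lie close together on chromosome 6. Notch3, the mural Notch receptor gene, was at 4.10 to 4.98 CPM in Myrf-kd, compared with 4.10 to 4.75 CPM in WT. Cspg4, which encodes the NG2 proteoglycan, was at 1.16 to 3.57 CPM in Myrf-kd against 1.66 to 2.87 CPM in WT. Anpep, an aminopeptidase gene, was at 0.221 to 0.561 CPM and 0.186 to 0.746 CPM, on 3 to 12.75 fragments. Fitted without the filter, the unadjusted 95% interval of its fold change was wide, from 0.343 to 2.72. For the 17 genes below the filter, fold changes fitted without it ran from 0.679 for Sox17 to 1.597 for Pdgfb, 8 above 1 and 9 below (48.4% of 31233 genes had a lower estimate), and 0 passed (edgeR adjusted p of at least 0.718). In that fit 0.016% of 31233 genes passed and 5.04% had an unadjusted p under 0.05, as did 2 of the 32 genes, Cdh5 and Tagln.

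Tagln and Acta2, contractile genes of smooth muscle, had the lowest and the third lowest estimate of the 15 genes tested, with Cdh5 between them. Tagln (chromosome 9, 45929619 to 45936058, minus strand), which encodes the actin-binding protein transgelin, had 4.50, 4.94 and 4.01 CPM in Myrf-kd 1, 2 and 3. The WT libraries had 6.96, 5.53 and 7.79 CPM in the same order. Every Myrf-kd library was below every WT library, with means of 4.48 ± 0.468 and 6.76 ± 1.15 CPM (SD, n = 3 each). These values rest on 68 to 133.25 fragments per library. The log2 fold change was −0.59 ± 0.18 (SE), or 66.3% of WT with a 95% interval from 49.3% to 89.2%. It did not pass (edgeR unadjusted p = 0.0137, adjusted p = 0.666, exact two-sided permutation p = 0.1). The log2 fold change lay between −0.72 and −0.48 in the omissions of a library, and without WT 3 the unadjusted p was 0.0548 by edgeR.

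Antisense genes cover part of Tagln. Gm48529 shares 62.4% of its exonic bases and Pcsk7 5.43%, both on the opposite strand. Gm48529 had a log2 fold change of −0.26 and Pcsk7 of 0.41 (edgeR adjusted p = 0.745 and 0.666). Without strand, reads of Tagln and Gm48529 cannot be told apart in the shared bases.

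Acta2 (chromosome 19, 34241090 to 34255590, minus strand), the smooth muscle actin gene, was at 5.87, 6.35 and 7.19 CPM in Myrf-kd, compared with 8.48, 6.31 and 9.44 CPM in WT. WT 1 and WT 3 were above every Myrf-kd library, and WT 2 lay among them. The fold change was 0.800, with a 95% interval from 0.590 to 1.09 (edgeR adjusted p = 0.703). Myh11, the smooth muscle myosin gene, lay below the filter at 5.59, 4.46 and 6.03 CPM in Myrf-kd against 5.71, 5.02 and 7.29 CPM in WT. Des, the desmin filament gene shared with other muscle, was at 1.34 to 1.74 CPM in Myrf-kd, compared with 1.07 to 2.06 CPM in WT. Smooth muscle genes are known to be driven by serum response factor through CArG boxes. The 30-base stretches below are from the Acta2 start region (minus strand, GRCm38.p6), shown because Acta2 is the tested contractile gene with a RefSeq window. Capitals mark matches to a CArG-like form, CC and GG around 6 bases of which at least 5 are A or T, a form that reads alike on both strands. They lie 84 to 75 and 34 to 25 bases before the RefSeq start.
Acta2 distal (chr19:34255438-34255467): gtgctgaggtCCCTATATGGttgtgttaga
Acta2 proximal (chr19:34255388-34255417): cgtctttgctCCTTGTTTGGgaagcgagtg
Both stretches lie within the first exon of a GENCODE transcript of Acta2 (chromosome 19, 34255290 to 34255590), which starts upstream of the RefSeq start. This form is in 8.59% of the 32851 windows, and among the 21 vessel genes with a window in those of Acta2, Egfl7, Eng, Kdr and Slco1a4. The strict CArG box, with 6 of 6 inner bases A or T, is in 1.47% of windows and in none of these 21 genes. No match says only that these letters are not in this window.

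**Figure D3:**
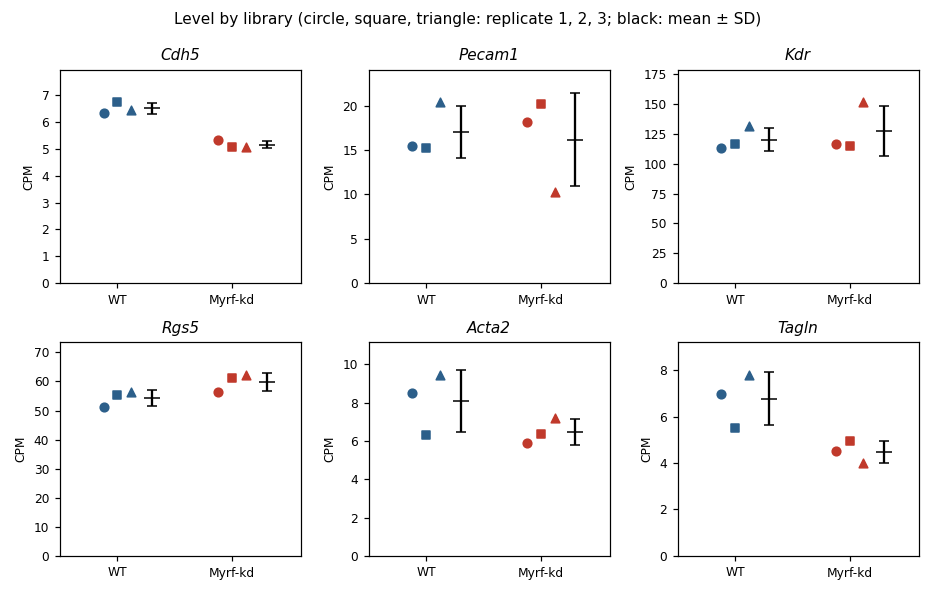
Level of 6 genes in each library in CPM, with circle, square and triangle for replicates 1, 2 and 3 and the mean ± SD in black; each axis starts at 0. Cdh5 and Tagln do not overlap between the groups, Pecam1 has its low value of 10.3 CPM and Kdr its high value of 152 CPM in Myrf-kd 3.

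Within Myrf-kd, replicate 3 departed most from the other libraries, a pattern singled out after its values were seen. It held the highest or the lowest value in 12 of the 15 tested genes (80%) and in 20 of all 32 genes (62.5%), against 50.8% of all genes tested. The departures went both ways. Pdgfb, below the filter, was at 192%, and Slco1a4, Nos3, Cldn5 and Kdr were at 170%, 132%, 130% and 130% of the median of the other 5 libraries. Robo4, Cspg4, Pecam1, Anpep, Abcc9 and Eng were at 40.1%, 47.3%, 56.5%, 57.7%, 64.3% and 69.3%. Of these genes, Cldn5 was lower than in WT 3 and Anpep higher than in WT 1, so neither was at its extreme in Myrf-kd 3. Endothelial genes were therefore found at both ends, and the classes did not move as a block in this library. WT 3, the other female library, was the highest of WT in Slco1a4, Cldn5 and Kdr as well, but also in Pecam1, and the lowest of WT in Nos3. With sex as a covariate 0 of the 15 genes passed (edgeR).

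**Figure D4:**
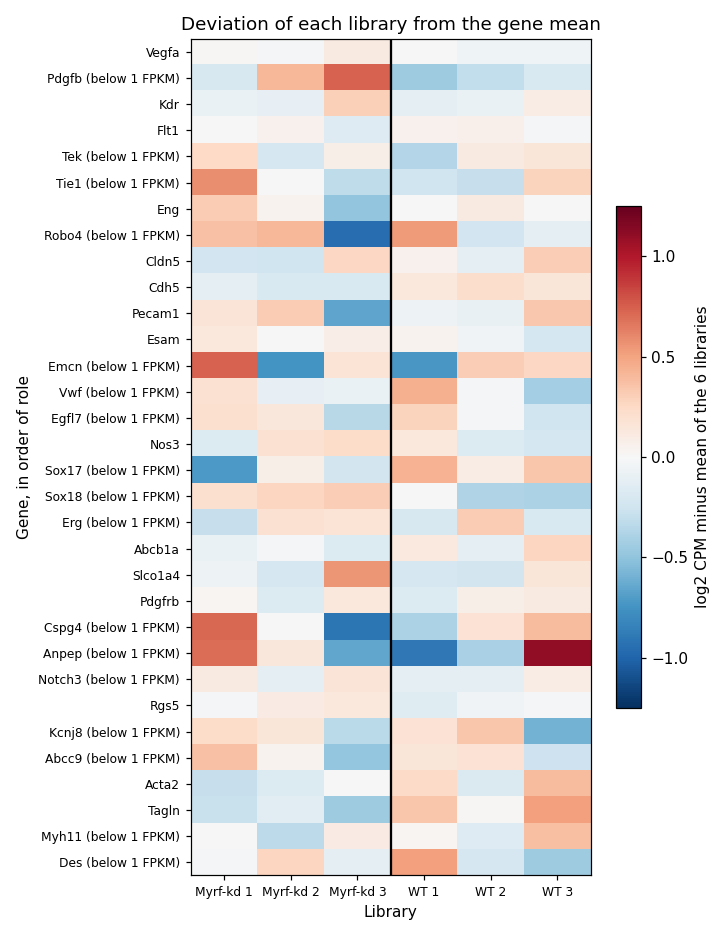
Log2 CPM of each gene minus its mean over the 6 libraries, with genes in order of role and a black line between Myrf-kd and WT; red is above and blue below the mean. The third column, Myrf-kd 3, holds deep colours in both directions, such as Robo4 at 40.1% and Slco1a4 at 170% of the median of the other libraries.

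Pathways that act on these vessels were followed with 9 lists, in which 0 genes passed in either direction (edgeR), where 0.0439% of all genes passed. From RNA of whole retina it cannot be told which cells the RNA of the listed genes came from, vessel or other. Of 10 VEGF ligand and receptor genes found, 5 were tested, 3 with higher and 2 with lower estimates and a median of 0.01 on the log2 scale. The single tested gene of 7 in the angiopoietin list was Ptprb, the VE-PTP phosphatase gene, at 18.6 ± 4.46 CPM in Myrf-kd against 19.8 ± 2.44 CPM in WT. In the PDGF list 3 of 6 were tested, among them Pdgfra at 12.3 ± 1.11 and 12.8 ± 1.31 CPM and Pdgfd at 4.88 ± 0.895 and 4.25 ± 1.51 CPM.

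The Norrin pathway, known to build the blood-retina barrier, had 9 of 12 genes tested, 4 with higher and 5 with lower estimates. Lrp6, a Wnt co-receptor gene, was at 96.6, 94.3 and 89.7 CPM in Myrf-kd, compared with 105, 106 and 107 CPM in WT. Fzd4, the Norrin receptor gene, was at 46.9, 39.5 and 45.0 CPM in Myrf-kd against 48.6, 59.6 and 55.8 CPM in WT. Neither gene overlapped between the groups, both were lower in Myrf-kd, and neither passed (edgeR adjusted p = 0.666 for both). Groups did not overlap with Myrf-kd lower in 7.5% of all genes tested. Lrp6 and Fzd4 were named for the smallest unadjusted p of the 9 tested, so that share of unpicked genes is no yardstick for them. The co-receptor gene Tspan12 was at 8.89 ± 1.11 CPM in Myrf-kd, compared with 7.32 ± 1.12 CPM in WT, and so had its estimate on the other side.

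Of 13 Notch genes 9 were tested, with a median of −0.00028 on the log2 scale. The ligand gene Jag1 was at 159 ± 24.5 CPM in Myrf-kd against 119.6 ± 19.1 CPM in WT, the feedback gene Nrarp at 6.99 ± 0.580 and 5.45 ± 1.24 CPM, and the ligand gene Jag2 at 36.9 ± 6.16 and 42.0 ± 3.26 CPM. In the BMP and TGF-beta list 11 of 17 were tested, 3 with higher and 8 with lower estimates (median −0.11). The receptor gene Tgfbr1 was at 40.8, 45.2 and 46.2 CPM in Myrf-kd, compared with 15.0, 39.2 and 20.8 CPM in WT, so WT 2 was close to Myrf-kd while WT 1 and 3 were far below. The BMP mediator genes Smad1 and Smad5 were at 26.4 ± 4.18 and 111 ± 26.4 CPM in Myrf-kd against 33.3 ± 2.76 and 139 ± 6.61 CPM in WT.

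Tight junction and barrier genes numbered 12 tested of 14, 5 with higher and 7 with lower estimates. Plvap, a gene of leaky vessels such as those of the choroid, was at 5.62 ± 1.03 CPM in Myrf-kd against 4.61 ± 0.727 CPM in WT, and Slc7a5, an amino acid transporter gene, at 64.0 ± 14.5 and 72.9 ± 7.49 CPM. Of 9 basement membrane genes 5 were tested, 1 with a higher and 4 with lower estimates and a median log2 fold change of −0.15. The collagen IV gene Col4a1 was at 61.3, 65.0 and 39.2 CPM in Myrf-kd against 61.6, 88.1 and 77.3 CPM in WT, with Myrf-kd 3 lowest. Its neighbour Col4a2 was at 48.7 ± 10.5 and 57.1 ± 1.42 CPM, and the laminin gene Lama5 at 19.0 ± 1.15 and 21.0 ± 1.62 CPM. The hypoxia response, known to raise Vegfa, had 6 of 12 tested genes with higher and 6 with lower estimates. Vhl, which marks HIF proteins for destruction, was at 38.0 ± 8.30 CPM in Myrf-kd, compared with 53.0 ± 3.40 CPM in WT, and the HIF gene Epas1 at 196 ± 18.8 and 217 ± 18.3 CPM (edgeR adjusted p = 0.666 and 0.724).

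Markers of other tissues differed between the libraries. Summed retinal pigment epithelium and choroid markers were at 379.98 to 411 CPM in Myrf-kd against 423 to 517 CPM in WT, and fibroblast and scleral markers at 29.5 to 40.5 and 45.9 to 50.5 CPM. Neither sum overlapped between the groups, and nor did the cornea and rod sums that follow, all lower in Myrf-kd. The sums of the other lists overlapped. Of single genes tested, 7.5% did not overlap with Myrf-kd lower, and no such share was computed for sums. Rlbp1 is both in the pigment epithelium and in the Mueller glia list. Of the 6 fibroblast and scleral markers only Pdgfra was tested, and it overlapped between the groups. All 5 cornea markers summed to 0.919 to 5.74 CPM in Myrf-kd, compared with 14.4 to 22.7 CPM in WT. Blood markers were at 47.3 to 53.3 CPM in Myrf-kd against 63.2, 37.0 and 90.9 CPM in WT 1, 2 and 3. Rod markers were at 32925 to 35978 CPM in Myrf-kd, while WT 1, 2 and 3 had 51717, 37061 and 54882 CPM. A sum follows its most abundant genes. Over the 8 rod genes, all tested, the median log2 fold change was −0.06, with 7 lower estimates and 1 higher. Of them 1 had an unadjusted edgeR p under 0.05, as had 7.49% of all genes tested. WT 1 and WT 3 were above WT 2 in the sums of blood, rod, fibroblast, muscle and lens markers, as in Tagln and Acta2. This order was not seen in pigment epithelium, cornea, Mueller glia or microglia markers. Muscle markers were at 29.5 to 33.4 and 29.5 to 34.5 CPM, with the smooth muscle genes Cnn1 and Actg2 at most 0.33 CPM and the skeletal myosin gene Myh4 at most 0.28 CPM in any library. The part of these markers in the vessel gene values was not tested.

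**Figure D5:**
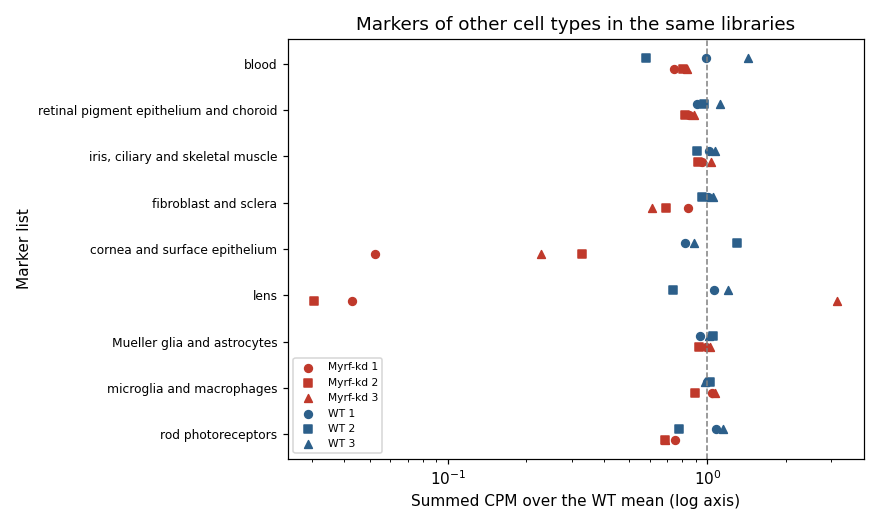
Summed CPM of 9 lists of markers of other cell types in each library, divided by the WT mean, on a log axis; red points are Myrf-kd and blue points WT. Red lies below blue for the lists of pigment epithelium, fibroblast, cornea and rod markers, and lens markers run from 0.638 CPM in Myrf-kd 2 to 66.0 CPM in Myrf-kd 3.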

How the data were processed

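The submitters' processing notes list Bowtie 0.12.2, HISAT2 2.0, StringTie 1.3.0 and GRCm38 without saying what each was used for. Whether the kit keeps strand is not given in the labels used here. The authors deposited FPKM per gene and library, with 0.0001 where there is no signal, and count columns read here as estimated counts. The deposited counts were whole, so rounding changed none, and 4 was the commonest low value in every library, from which 1 fragment is read as about 4 units. Groups and replicate numbers come from the sample titles.

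Genes whose FPKM averaged 1 or more were fitted with edgeR 4.0.16 (R 4.3.3, TMM factors, quasi-likelihood test, two-sided, Benjamini-Hochberg over 13673 genes, threshold 0.05, genotype as the only term). The SE is the log2 fold change over the root of F. Alternatives were other filters, scalings and pseudocounts, DESeq2 1.42.0, limma 3.58.1 on log2(FPKM + 1), a replicate block, sex, counts divided by 4 and each library left out. Genes were named by role, with values per library for the 10 smallest p and 9 lead markers. Of each pathway list, up to 3 tested genes with the smallest unadjusted p were named. A gene that this rule names is not reported here. The genes and lists were chosen with earlier results of these data known. Every pair of libraries differed by more than sampling noise (lowest chi-square over its degrees of freedom 18.7). The fitting script was tested on simulated data. GGAAG and the CArG forms were searched in RefSeq windows of 250 bases.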

Additional observations from a re-analysis of the deposited data

How the results depend on the processing

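Under 16 alternatives 0 tested vessel genes passed, and 10 of 15 kept the sign of their estimate. The median log2 fold change of mural genes was −0.020 with no filter (11 genes) and −0.026 with a mean FPKM of at least 0.5 (7 genes), against −0.16 for the 4 genes tested, as more genes enter. With 1 library left out it lay between −0.24 and −0.07, and that of endothelial genes between −0.073 and 0.025 (the latter without WT 3). The estimate of Pdgfrb, at −0.0058, changed sign with upper-quartile factors (0.0028) and by limma on log2(FPKM + 1) and log2(FPKM + 0.1) (0.0087 and 0.012). With 1 library left out it lay between −0.090 and 0.073 for Pdgfrb, −0.059 and 0.16 for Kdr, −0.24 and 0.14 for Eng, −0.26 and 0.17 for Pecam1, and −0.053 and 0.36 for Slco1a4. Kdr, Eng, Pecam1 and Slco1a4 changed sign without Myrf-kd 3, Pecam1 also without WT 3, and the cause was not tested. With the replicate number as a block 0 of 15 genes passed, with medians of −0.08 (endothelial) and −0.16 (mural). Same-numbered libraries had deviations correlated at −0.04, 0.08 and 0.14, and not each library correlated best with its own number. These deviations were taken from the mean of a small group, so they cannot decide whether the numbers pair the samples. Depth limits the low genes: 17 of 32 rested on at most 193 fragments per library. It also limits tested genes, such as Cldn5 at 41 to 76.5, Tagln at 68 to 133.25 and Cdh5 at 79.75 to 110.25 fragments.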
